A study of Homo sapiens with 6 samples.

Results

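The genes described here encode the Wnt ligands, the Frizzled receptors and the main regulators of Wnt signalling, measured as RNA in PC-3 cells with and without overexpression of BHLHE22. Members were taken by gene symbol: all WNT ligands, FZD receptors, DKK1 to DKK4 and SFRP antagonists, together with a named set of co-receptors, receptor regulators, destruction complex genes and TCF/LEF factors. This gave 54 of the 58302 genes in the deposited table, and 30 of them had enough reads to be tested, among 15945 tested genes in all. PC-3 is a widely used epithelial cell line that was grown from a human prostate cancer metastasis in bone. The 3 BHLHE22 libraries came from PC-3 cells given a lentivirus that overexpresses the transcription factor BHLHE22, and the 3 vector libraries from PC-3 cells given a blank lentivirus. The sources used here do not name the construct's promoter, say whether cells were pooled or cloned, or say whether replicate libraries came from separate cultures. The p-values thus reflect only how far these libraries vary, and that variation may be technical.

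Wnt proteins are secreted lipid-modified ligands that bind Frizzled receptors together with LRP5 or LRP6. In the canonical branch, binding disables a destruction complex built on AXIN and APC, beta-catenin accumulates, and TCF/LEF factors switch on target genes. Several of those targets, such as AXIN2, RNF43, ZNRF3, NKD1 and TCF7, themselves regulate the pathway. Other Wnts act without beta-catenin through ROR or RYK receptors. In bone metastasis of prostate cancer the pathway is known for the antagonist DKK1, which tumour cells secrete and which restrains bone-forming osteoblasts.

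The overexpressed gene itself had 1 read in each vector library and 98, 92 and 133 reads in the BHLHE22 libraries. Counts summed to 12186723 to 15949537 per library. The chi-square per degree of freedom between libraries ran from 11.0 to 22.5 for pairs within a group and from 69.2 to 136 for pairs across groups, so no library duplicated another. All 5 epithelial markers checked (KRT8, KRT18, KRT19, EPCAM and CDH1) were present, and 3 of them differed between the groups. EPCAM was higher in BHLHE22 libraries (24.4 ± 3.5 and 55.1 ± 4.5 CPM, read counts scaled to library size, mean ± SD, n = 3), and KRT8 (198 ± 19 and 159 ± 6 CPM) and KRT18 (153 ± 12 and 117 ± 20 CPM) were lower, with adjusted p-values of 0.000438, 0.0218 and 0.0397 (edgeR quasi-likelihood). KRT19 and CDH1 were not called. KLK3, a marker of luminal prostate cells, had 0 reads in all libraries. Of the blood cell markers, CD3E, TYROBP and HBB were listed at 0 and PTPRC, LYZ and HBA1 had at most 7 reads in a group. Markers of other cell types that passed the filter were all lower in BHLHE22 libraries: PECAM1 (55.7 ± 7.8 and 23.1 ± 3.6 CPM), 1 of 3 endothelial markers, and COL1A1 (65.9 ± 6.1 and 47.6 ± 0.9 CPM) and COL3A1 (7.64 ± 2.87 and 0.923 ± 0.020 CPM), 2 of 4 fibroblast markers (SD, n = 3). CDH5, VWF and DCN had at most 5 and COL1A2 at most 20 reads in a group. Whether cells of these types were present, or had a part in any result, was not tested. CPM counts reads per 1000000 library reads, here with library sizes scaled by the trimmed mean of M-values method (TMM). Levels of different genes are compared only in the authors' FPKM, which also divides by gene length. In bulk RNA, fewer cells with a transcript and less transcript per cell cannot be told apart.

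Wnt pathway genes changed in both directions, at a rate close to that of the whole transcriptome. Of the 30 tested members, 8 were higher in BHLHE22 cells, 8 were lower and 14 were not called, with edgeR's quasi-likelihood test at a Benjamini-Hochberg adjusted p under 0.05 over all tested genes. The called share of 53.3% stands beside 49.4% of all tested genes, of which 25.1% were higher and 24.3% lower. The groups did not overlap for 10 members that were higher and 9 that were lower. Among all tested genes the groups did not overlap for 60.5%, with 30.6% higher and 29.9% lower. The median log2 fold change was -0.13 over the tested members and 0.00 over all tested genes. WNT2B and WNT10B reached the cutoff of the filter on low counts in all 3 libraries only of the group in which they were higher. In the other group 2 libraries reached it, too few to pass on their own. Their calls are counted above but are no support for a result about the members. Unscaled library sizes shifted the median gene by 0.15 in log2 units. With them 9 members were higher and 4 lower, beside 5128 and 2890 of all 15945 tested genes. Fold changes here are thus relative to the typical gene. Members called lower numbered 5 when vector replicate 2, BHLHE22 replicate 2 or BHLHE22 replicate 3 was left out. All genes called lower then numbered 3239, 3074 and 3297, against 3880 with all libraries.

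**Figure D1:**
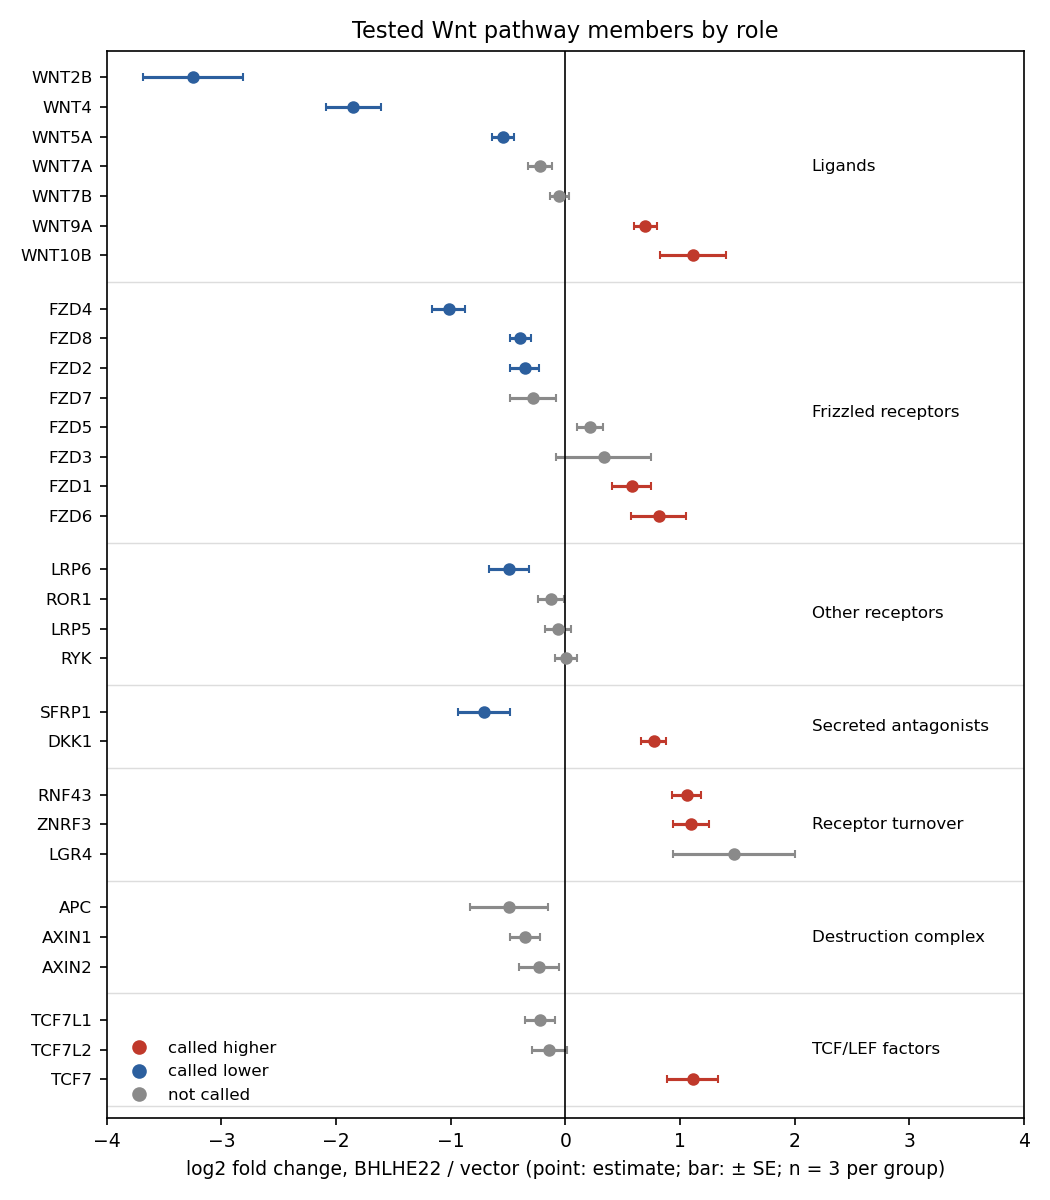
Log2 fold change of each tested member, BHLHE22 over vector, on the horizontal axis, with genes grouped by role; points are edgeR estimates and bars are ± SE (n = 3 per group). WNT2B (-3.25) and WNT4 (-1.85) lie farthest to the left, and LGR4, with the longest bar on the right, was not called.

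Promoters are shown for 4 members whose RNA changed, because they hold, or lack, short sequences that factors of these families bind. They are DKK1, WNT9A and RNF43, which rose, and WNT5A, which fell. The sequences are the 250 bases before the RefSeq start on GRCh38.p14, each written 5' to 3' on the gene's own strand. Capitals mark matches, on either strand, to the TCF/LEF core (CTTTG followed by AA, AT, TA or TT) or to the E-box CANNTG, the general site of basic helix-loop-helix proteins. The DKK1 window is chr10:52314031-52314280 (+ strand), that of WNT9A chr1:227947933-227948182 (- strand), that of RNF43 chr17:58417535-58417784 (- strand) and that of WNT5A chr3:55487307-55487556 (- strand).
DKK1: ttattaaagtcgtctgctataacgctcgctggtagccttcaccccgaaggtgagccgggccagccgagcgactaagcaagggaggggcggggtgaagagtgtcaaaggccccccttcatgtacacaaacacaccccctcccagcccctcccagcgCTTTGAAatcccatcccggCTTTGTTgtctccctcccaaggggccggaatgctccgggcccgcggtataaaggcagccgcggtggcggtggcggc
WNT9A: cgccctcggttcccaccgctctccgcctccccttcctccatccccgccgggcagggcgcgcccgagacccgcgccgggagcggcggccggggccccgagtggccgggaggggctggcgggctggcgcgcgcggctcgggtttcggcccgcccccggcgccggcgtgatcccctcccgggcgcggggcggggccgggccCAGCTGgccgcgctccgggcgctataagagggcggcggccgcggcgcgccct
RNF43: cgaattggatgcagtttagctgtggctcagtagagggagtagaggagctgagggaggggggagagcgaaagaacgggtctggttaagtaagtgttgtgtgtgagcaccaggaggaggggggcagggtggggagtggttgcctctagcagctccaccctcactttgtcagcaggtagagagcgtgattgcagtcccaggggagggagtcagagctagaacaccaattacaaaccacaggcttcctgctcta
WNT5A: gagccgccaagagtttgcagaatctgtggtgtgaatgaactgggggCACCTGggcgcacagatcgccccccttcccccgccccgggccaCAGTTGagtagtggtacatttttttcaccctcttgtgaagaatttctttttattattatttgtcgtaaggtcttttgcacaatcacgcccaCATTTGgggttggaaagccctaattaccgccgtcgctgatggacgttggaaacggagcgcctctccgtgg

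The DKK1 window held 2 TCF/LEF matches, starting 95 and 76 bases before the start, and no E-box. WNT9A had 1 E-box, CAGCTG, starting 52 bases before the start, and WNT5A had 3, starting 204, 161 and 70 bases before it. Only 1 RefSeq start was used per gene, and other starts were not examined. The WNT5A window lies inside the gene's span (55465715 to 55490539), so it precedes an internal start. That of RNF43 reaches partly into its gene's span. RNF43 had neither motif. A TCF/LEF match was present in 12.0% and an E-box in 61.8% of the 35116 promoters of the same length. RefSeq promoters were matched for 37 of the 54 members, of which 20 were tested. Of these 20, DKK1 was the 1 with a TCF/LEF match, and 7 had an E-box. Of the E-boxes, the form CATATG was present in 0 of the 20 and in 2.63% of all promoters. A match is a description of the letters, not evidence of binding.

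Ligands. PC-3 cells expressed 7 of the 19 WNT genes at a testable level, and BHLHE22 cells had less WNT2B, WNT4 and WNT5A and more WNT9A and WNT10B. WNT2B and WNT10B passed the filter only through the group in which they were higher. Their calls are thus no support for a result about the ligands. WNT2B (ENSG00000134245, chromosome 1, 112466541 to 112530165) encodes a ligand that acts through beta-catenin. It measured 13.8, 9.04 and 5.85 CPM in vector replicates 1 to 3 and 1.56, 0.574 and 0.900 CPM in the BHLHE22 replicates. Every BHLHE22 library was below every vector library, although the vector libraries themselves were widely spread. WNT2B fell 9.50-fold (log2 fold change -3.25 with an SE of 0.44, adjusted p = 0.00119 by edgeR's quasi-likelihood test). Its exons overlap those of ST7L on the opposite strand, which measured 14.3 ± 3.4 and 16.1 ± 2.2 CPM (SD, n = 3) in the vector and BHLHE22 groups.

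WNT4 (ENSG00000162552, chromosome 1, 22117305 to 22143969), a ligand known from kidney and reproductive tract development, measured 12.3, 9.18 and 11.8 CPM in vector and 3.28, 3.87 and 2.1 CPM in BHLHE22 libraries. The groups were well apart. It fell 3.60-fold (log2 fold change -1.85, SE 0.24, adjusted p = 0.000778). WNT5A (ENSG00000114251, chromosome 3, 55465715 to 55490539), the prototype of ligands that signal without beta-catenin, measured 122, 108 and 125 CPM against 86.7, 83.7 and 74.2 CPM. This was a small fall with no overlap, 1.46-fold (log2 fold change -0.54, SE 0.10, adjusted p = 0.00293). These and the following adjusted p-values are from the same edgeR quasi-likelihood fit.

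WNT9A (ENSG00000143816, chromosome 1, 227918656 to 227947898), a ligand with a known part in joint formation, measured 33.0, 34.5 and 32.1 CPM in vector and 48.2, 56.1 and 57.4 CPM in BHLHE22 libraries. The vector libraries lay within a few CPM of each other, and all BHLHE22 libraries were above them. WNT9A rose 1.62-fold (log2 fold change 0.70, SE 0.10, adjusted p = 0.00123). WNT10B (ENSG00000169884), a ligand known to favour bone formation, rose from 1.13, 0.748 and 0.986 CPM to 2.50, 1.51 and 2.22 CPM. Its level was low, with 40 reads over the vector and 90 over the BHLHE22 libraries (log2 fold change 1.12, SE 0.29, adjusted p = 0.0141).

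The paralogs WNT7A and WNT7B, the most abundant ligand transcripts per length in vector cells, were not called. WNT7A measured 79.7, 84.7 and 82.2 CPM against 78.4, 72.2 and 61.4 CPM (log2 fold change -0.22, SE 0.10, adjusted p = 0.117). Its groups did not overlap, but BHLHE22 replicate 1 was close to the vector libraries. WNT7B measured 87.7, 99.0 and 87.8 CPM against 89.1, 87.4 and 88.0 CPM (log2 fold change -0.05, SE 0.08, adjusted p = 0.615).

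The mixture of ligand transcripts shifted toward WNT9A. In FPKM, the vector cells held 15.7 ± 0.4 of WNT7A, 13.0 ± 0.6 of WNT7B, 7.93 ± 0.08 of WNT9A, 7.76 ± 0.78 of WNT5A and 2.32 ± 0.39 of WNT4. WNT9A and WNT5A did not differ beyond their spread there. In BHLHE22 cells WNT7A (14.9 ± 1.8), WNT9A (14.3 ± 1.3) and WNT7B (13.8 ± 0.2) lay within each other's spread, above WNT5A at 5.89 ± 0.46 and WNT4 at 0.713 ± 0.206 FPKM. WNT9A made up 16.6% ± 0.4 of the summed ligand FPKM in vector and 28.3% ± 3.2 in BHLHE22 libraries, a share that does not depend on library scaling. The share of WNT5A was 16.3% ± 1.5 and 11.7% ± 0.6, and that of WNT4 4.86% ± 0.78 and 1.41% ± 0.38. The groups did not overlap for these 3 shares, nor for those of WNT2B, FZD4, FZD5 and FZD6. They overlapped for the shares of WNT7A, WNT7B, FZD2 and FZD8. Each share without overlap gave a 2-sided exact permutation p of 0.1, the smallest that 3 against 3 libraries allow. The adjusted p of each was 0.157 over 11 ligand and Frizzled shares. The summed ligand FPKM was 47.6 ± 0.6 in vector and 50.4 ± 1.4 in BHLHE22 libraries. FPKM rests on unscaled library totals, which put the median gene 0.15 log2 units higher in BHLHE22 libraries, so no rise is read from these sums.

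**Figure D2:**
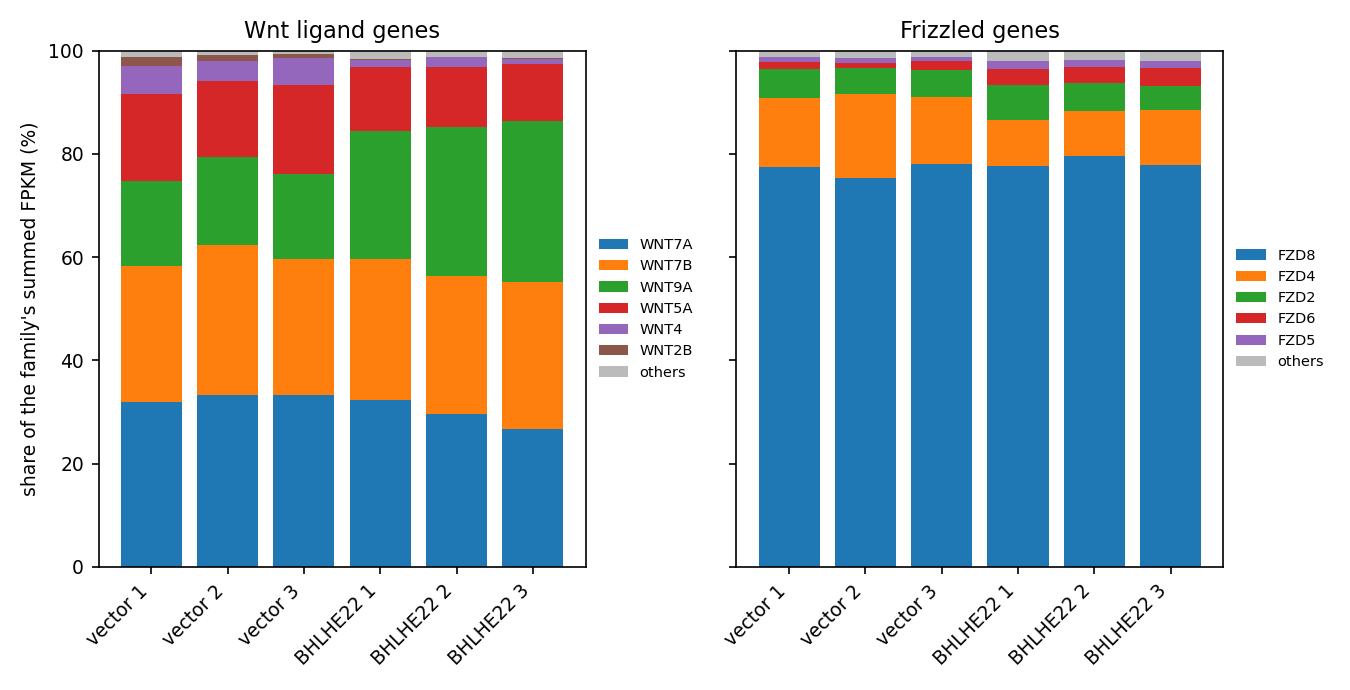
Share of each gene in the summed FPKM of its family (percent, stacked to 100), for Wnt ligands on the left and Frizzled receptors on the right, 1 bar per library. WNT9A widens from 16.6% to 28.3% on average and FZD4 narrows from 14.3% to 9.35%, while FZD8 takes 75.3% to 79.7% of every bar.

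Frizzled receptors. FZD8 RNA exceeded that of any other Frizzled in every library, and both FZD8 and FZD4 were lower in BHLHE22 cells while FZD6 and FZD1 were higher. FZD4 (ENSG00000174804, chromosome 11, 86945679 to 86955391), a receptor for Wnts and for the non-Wnt ligand norrin, measured 247, 282 and 239 CPM in vector and 108, 118 and 153 CPM in BHLHE22 libraries. The highest BHLHE22 library was well below the lowest vector library. FZD4 fell 2.03-fold (log2 fold change -1.02, SE 0.14, adjusted p = 0.00101). FZD4 exons overlap those of PRSS23 on the other strand, which measured 122 ± 8 and 94.5 ± 3.1 CPM.

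FZD8 (ENSG00000177283, chromosome 10, 35638249 to 35642278) measured 775, 706 and 783 CPM against 520, 589 and 616 CPM, a 1.31-fold fall (log2 fold change -0.39, SE 0.09, adjusted p = 0.00838). With unscaled library sizes its adjusted p was 0.0623. It ranked 141st by mean FPKM among all genes in vector and 165th in BHLHE22 cells. FZD2 measured 29.1, 25.0 and 27.5 CPM against 24.0, 21.0 and 19.0 CPM, and its adjusted p of 0.0492 (log2 fold change -0.35, SE 0.13) was just under the threshold. The call of FZD2 ended in 8 of the 13 other fits, among them every fit that left out a vector library and those that left out BHLHE22 replicate 2 or 3.

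FZD6 (ENSG00000164930), a receptor best known from planar cell polarity, measured 38.6, 24.3 and 46.8 CPM in vector and 56.1, 62.1 and 74.9 CPM in BHLHE22 libraries. The vector libraries were widely spread, with replicate 2 lowest (log2 fold change 0.82, SE 0.24, adjusted p = 0.0273). FZD1 measured 9.45, 7.34 and 8.10 CPM against 9.99, 12.8 and 14.3 CPM (log2 fold change 0.58, SE 0.17, adjusted p = 0.0254). The groups did not overlap for either gene, but both calls were lost in some fits with 1 library left out. The adjusted p of FZD6 was 0.0620 without vector replicate 1, 0.0594 without BHLHE22 replicate 2 and 0.0876 without BHLHE22 replicate 3. That of FZD1 was 0.0754 and 0.0615 without vector replicates 2 and 3, and 0.0713 and 0.0797 without BHLHE22 replicates 2 and 3.

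The other 3 tested Frizzled genes were not called. FZD5 measured 14.97, 15.03 and 13.7 CPM against 16.9, 15.8 and 18.1 CPM (log2 fold change 0.22, SE 0.11, adjusted p = 0.153). Its groups did not overlap, and it was called with unscaled library sizes (adjusted p = 0.0319). FZD3 measured 6.13, 14.3 and 16.5 CPM against 16.2, 10.05 and 20.5 CPM, with wide overlap (adjusted p = 0.536). FZD7 measured 4.55 ± 0.99 and 3.75 ± 0.27 CPM (adjusted p = 0.282). Per length, the order in both groups was FZD8, FZD4, FZD2 and FZD6. In vector cells they measured 178 ± 14, 32.8 ± 2.0, 12.2 ± 1.2 and 3.25 ± 1.09 FPKM, and in BHLHE22 cells 150 ± 13, 18.0 ± 3.5, 10.6 ± 1.3 and 6.30 ± 0.96 FPKM. FZD4 took 14.3% ± 1.8 of the summed Frizzled FPKM in vector and 9.35% ± 1.07 in BHLHE22 libraries, and FZD6 1.39% ± 0.39 and 3.29% ± 0.24. Neither pair of shares overlapped between groups (exact permutation p = 0.1 for each, the smallest possible).

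Co-receptors and other receptors. Transcripts of LRP5, ROR1 and RYK were not called, and LRP6 was at the edge of the threshold. LRP5 and LRP6 are the co-receptors that Wnt and Frizzled engage in the canonical branch. LRP5 measured 231, 197 and 231 CPM against 234, 214 and 182 CPM (log2 fold change -0.06, SE 0.11, adjusted p = 0.665). LRP6 measured 5.60, 5.58 and 4.23 CPM against 3.51, 3.95 and 3.48 CPM. Its groups did not overlap (log2 fold change -0.49, SE 0.18, adjusted p = 0.0495), and the call held in 3 of the 13 other fits, with adjusted p-values between 0.0230 and 0.145. The call ended without vector replicate 1 or 2 or any 1 of the BHLHE22 replicates. Per length, LRP5 RNA was 68.3 to 129 times that of LRP6 in single libraries.

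ROR1, a receptor of WNT5A, measured 61.3, 48.5 and 63.5 CPM against 51.3, 53.7 and 53.9 CPM (log2 fold change -0.12, SE 0.12, adjusted p = 0.404). RYK, a pseudokinase Wnt receptor, measured 59.4, 56.3 and 62.7 CPM against 54.5, 64.6 and 59.6 CPM (log2 fold change 0.00, SE 0.10, adjusted p = 0.983). The direction of LRP5, ROR1 and RYK depended on the scaling, and ROR2 was nearly absent with 3 and 2 reads per group.

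Secreted antagonists. DKK1 was by far the most abundant antagonist transcript and rose in BHLHE22 cells. DKK1 (ENSG00000107984, chromosome 10, 52314296 to 52318042) encodes a secreted protein that binds LRP5 and LRP6 and blocks the canonical branch. It measured 454, 385 and 511 CPM in vector and 758, 784 and 760 CPM in BHLHE22 libraries. The vector libraries were spread, the BHLHE22 libraries lay close together, and all BHLHE22 values were above all vector values. DKK1 rose 1.71-fold (log2 fold change 0.77, SE 0.11, adjusted p = 0.00104). By mean FPKM it ranked 171st among all genes in vector and 87th in BHLHE22 cells, at 146 ± 24 and 276 ± 4 FPKM. These FPKM values rest on unscaled library totals, so the size of the rise is read from the scaled fit. DKK1 FPKM was 2.58 to 3.52 times the summed FPKM of all 19 ligand genes in vector libraries and 5.31 to 5.62 times in BHLHE22 libraries. The antisense gene PRKG1-AS1, which shares exonic bases with DKK1, measured 1.10 ± 0.43 and 2.26 ± 0.37 CPM.

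SFRP1, which encodes a secreted decoy that binds Wnts, was the other tested antagonist. It measured 2.50, 2.79 and 2.96 CPM against 2.11, 1.65 and 1.32 CPM, lower with no overlap (log2 fold change -0.71, SE 0.23, adjusted p = 0.0335). The call rests on 116 and 72 reads and held in 4 of the 13 other fits. It ended without any 1 of the vector replicates and without BHLHE22 replicate 2 or 3, with adjusted p-values up to 0.104 in those fits. SFRP2, SFRP4, SFRP5, DKK2 and DKK4 were listed at 0 in all libraries, and DKK3 had 11 and 24 reads in the vector and BHLHE22 groups. The ratio of those DKK3 reads was 2.12 after scaling, with an exact 95% interval of 0.998 to 4.79 that covers counting error only.

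**Figure D3:**
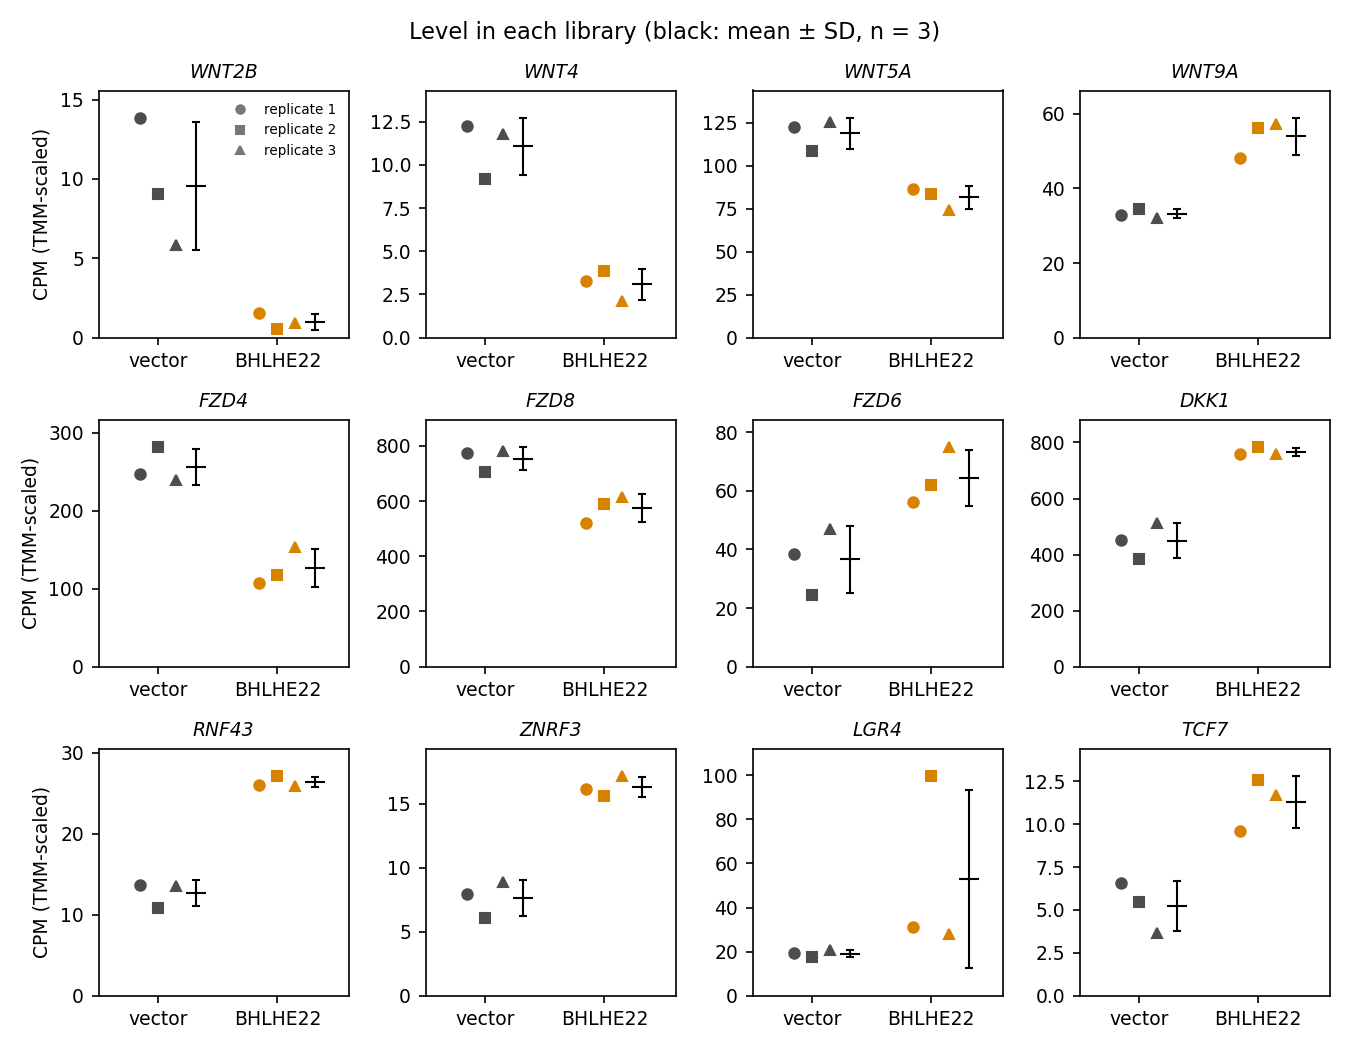
TMM-scaled CPM in each library (vertical axes start at 0) for 12 members; grey symbols are vector and orange symbols BHLHE22 libraries, the shape gives the replicate number, and black bars are mean ± SD (n = 3). The 12 were chosen from the 30 tested members, so it is no result that the groups overlap in none of the panels. They did not overlap for 19 of the 30 members, beside 60.5% of all tested genes. LGR4 in BHLHE22 replicate 2 stands at 99.7 CPM beside 31.2 and 28.0 CPM.

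Receptor turnover. RNF43 and ZNRF3 rose together, each about as much as the other. They encode related membrane ubiquitin ligases that remove Frizzled receptors from the cell surface, and both are known targets of beta-catenin. RNF43 (ENSG00000108375, chromosome 17, 58352500 to 58417595) measured 13.6, 10.8 and 13.5 CPM in vector and 26.1, 27.1 and 25.9 CPM in BHLHE22 libraries. ZNRF3 (ENSG00000183579, chromosome 22, 28883592 to 29057487) measured 7.94, 6.05 and 8.87 CPM against 16.2, 15.6 and 17.2 CPM. For both genes the BHLHE22 libraries were close together and clear of the vector libraries. The rise was 2.08-fold for RNF43 (log2 fold change 1.06, SE 0.13, adjusted p = 0.000576) and 2.14-fold for ZNRF3 (log2 fold change 1.10, SE 0.16, adjusted p = 0.00125). RNF43 exons overlap those of 3 other annotated genes. AC004687.2, on the same strand, covers 57.6% of their bases, and no level is given for it here. SUPT4H1, another of the 3, measured 85.4 ± 1.7 and 81.7 ± 11.6 CPM. The sources used here do not say how reads in shared exons were assigned.

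LGR4, the R-spondin receptor that restrains those 2 ligases, was higher in all BHLHE22 libraries but with 1 library far above the others. It measured 19.3, 17.4 and 20.6 CPM in vector and 31.2, 99.7 and 28.0 CPM in BHLHE22 libraries. BHLHE22 replicate 2 was 3.37 times the mean of the other BHLHE22 replicates. The difference was not called (log2 fold change 1.47, SE 0.53, adjusted p = 0.0649). Without BHLHE22 replicate 2 the log2 fold change was 0.64 and the adjusted p 0.0132. Without BHLHE22 replicate 3 they were 1.78 and 0.0439, and with DESeq2 1.46 and 0.0329. Within 500000 bases of LGR4, the 5 other genes with a mean of at least 5 CPM showed no such excess, with ratios of BHLHE22 replicate 2 to the mean of the others of 0.849 to 1.08. In that library, 8 of 10290 genes with at least 10 CPM were 3-fold or more above both other replicates, against 6 to 15 in the other libraries. LGR5, a stem cell marker of the same family, had 26 and 23 reads.

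Destruction complex. The 3 tested member genes of the destruction complex were not called. Its kinase genes are not members and were counted with the cytoplasmic transducers below. Among them, chosen after their values were seen, GSK3B was lower (log2 fold change -0.30, adjusted p = 0.00919). GSK3A and CSNK1A1 were not called (adjusted p = 0.765 and 0.0516). The ubiquitin ligase gene BTRC, chosen likewise, was lower (log2 fold change -0.61, adjusted p = 0.0111). AXIN2, the most widely used reporter gene of beta-catenin activity, measured 16.0, 19.0 and 12.9 CPM against 14.2, 15 and 11.7 CPM. The groups overlapped (log2 fold change -0.23, SE 0.17, adjusted p = 0.304). AXIN1, the constitutive scaffold, measured 33.4, 42.0 and 45.1 CPM against 34.0, 30.1 and 30.3 CPM (log2 fold change -0.35, SE 0.13, adjusted p = 0.0573). Without vector replicate 1 AXIN1 was called lower (adjusted p = 0.0234). The tumour suppressor gene APC measured 20.8, 28.5 and 13.7 CPM against 13.2, 21.0 and 10.7 CPM, a wide spread in both groups (log2 fold change -0.49, SE 0.34, adjusted p = 0.274). NKD1, an inhibitor of Dishevelled and a known target gene, had 6 and 3 reads in all.

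TCF/LEF factors. TCF7 rose while TCF7L1 and TCF7L2 were not called, and LEF1 was nearly silent. TCF7 (ENSG00000081059, chromosome 5, 134114711 to 134151865), which encodes TCF1, measured 6.58, 5.44 and 3.66 CPM in vector and 9.60, 12.6 and 11.7 CPM in BHLHE22 libraries. The groups were apart, and TCF7 rose 2.16-fold (log2 fold change 1.11, SE 0.22, adjusted p = 0.00486). TCF7 exons share 2.09% of their bases with SKP1 on the opposite strand, which measured 119 ± 7 and 138 ± 13 CPM. TCF7L1, known mainly as a repressor, measured 23.6, 22.0 and 18.5 CPM against 19.7, 18.4 and 17.0 CPM (adjusted p = 0.201). TCF7L2, the TCF of the intestinal epithelium, measured 19.6, 16.9 and 14.5 CPM against 14.98, 17.5 and 13.8 CPM (adjusted p = 0.478). The groups overlapped for both. LEF1 had 0 reads in the vector libraries and 2, 3 and 4 in the BHLHE22 libraries. This was 2.91-fold higher against a floor of 3 reads over the vector group. The exact 95% interval of the ratio, for counting error only, had a lower limit of 1.92. LEF1 did not pass the filter and was not tested.

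The remaining untested members were at or near the limit of detection. In all, 24 members were not tested, 7 of them with no read in any library and 17 with 1 to 49 reads over the 6 libraries. The untested ligands with the most reads were WNT3 (20 and 24 reads in the vector and BHLHE22 groups) and WNT10A (18 and 23). A count of 0 over a group allows up to 0.0712 CPM for the vector group and 0.0691 CPM for the BHLHE22 group, for counting error only. WNT3A and WNT9B were among the genes listed at 0. Whether a gene listed at 0 had no RNA or lost its reads in counting was not tested.

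The rest of the pathway was examined with 68 further genes in 6 lists. Of the 52 tested, 12 were higher, 13 lower and 27 not called, a called share of 48.1% beside 49.4% of all tested genes. Leaving out vector replicate 2 gave 5 genes called higher, and leaving out vector replicate 1 or BHLHE22 replicate 2 gave 7. All genes called higher then numbered 3331, 3232 and 3229, against 3996 with all libraries. The median log2 fold change of the 52 genes was -0.09, against 0.00 over all tested genes. Of the ligand processing and secretion genes, PORCN, the acyltransferase that lipidates Wnts, rose from 20.2, 19.7 and 23.1 to 29.8, 27.8 and 24.3 CPM (log2 fold change 0.38, SE 0.12, adjusted p = 0.0361). Its call held in 8 of the 13 other fits. WLS, the carrier that exports Wnts, measured 38.8 ± 0.5 and 33.6 ± 1.1 CPM and was not called (adjusted p = 0.0804). NOTUM, the enzyme that strips the lipid from Wnts, was chosen after its values were seen and was not tested. It had 35 reads over the vector libraries and 0 over the BHLHE22 libraries. This was 12.0-fold lower given a floor of 3 reads over the BHLHE22 group, without counting error of the 35 reads.

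Of the other secreted or surface regulators, 6 of 16 were tested, 2 rose and 0 fell (33.3% called, beside 49.4% of all tested genes). These were KREMEN1, a DKK receptor, and GPC4, a glypican, with log2 fold changes of 0.50 and 0.28. Both calls were lost in several other fits, with adjusted p-values up to 0.138 and 0.105.

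Among 17 tested cytoplasmic transducers, 7 fell and 1 rose. The called share of 47.1% was near the 49.4% of all tested genes, of which 24.3% were lower and 25.1% higher. The Dishevelled genes DVL2 and DVL3, which relay the receptor signal, fell by 0.78 and 0.68 on the log2 scale. The tankyrase genes TNKS and TNKS2, whose enzymes mark AXIN for degradation, fell by 0.52 and 0.56. CTNNB1, the gene of beta-catenin, was the 1 that rose, from 214, 216 and 238 to 249, 289 and 302 CPM (log2 fold change 0.33, SE 0.10, adjusted p = 0.0220). Its groups did not overlap, and its adjusted p reached 0.0743 in fits with 1 library left out. The 10 nuclear cofactor genes (40% called, beside 49.4%) included 3 that fell and 1 that rose, all of them Groucho-family corepressors of TCF/LEF. TLE2, TLE4 and TLE3 had log2 fold changes of -1.30, -0.60 and -0.47, and TLE1 of 0.60.

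Planar cell polarity genes went both ways, with 3 of 9 higher and 2 lower, a called share of 55.6% that was near the 49.4% of all tested genes. PRICKLE3 and CELSR1 rose by 0.77 and 0.30 on the log2 scale, and CELSR3 and CELSR2 had log2 fold changes of -1.01 and -0.34. The calls of CELSR1 and CELSR2 held in 8 and 6 of the 13 other fits, with adjusted p-values up to 0.0863 and 0.144. Of 8 tested genes known as beta-catenin targets, 4 were called higher and 1 lower, beside 25.1% and 24.3% of all tested genes, and so few genes give no result about the list. SP5, a factor that is a direct target in many tissues, measured 0.605, 0.952 and 0.423 CPM in vector and 2.26, 2.01 and 2.16 CPM in BHLHE22 libraries, from 28 and 93 reads. Only the BHLHE22 group lay wholly above the filter's cutoff of 0.702 CPM, so SP5 was tested only because it was high there, and its call is no support for the list. EPHB2 and CD44 had log2 fold changes of 1.03 and 0.50, and MYC, which has many other inputs, one of 3.16. The adjusted p of CD44 was 0.0559 and 0.0515 without vector replicates 2 and 3. BAMBI, chosen after its values were seen, fell by 1.46 on the log2 scale, with vector replicate 2 at 93.4 CPM beside 37.7 and 30.4 CPM. Without that library its log2 fold change was -0.80 (adjusted p = 0.00848), and without any 1 of the BHLHE22 replicates the adjusted p was 0.0870 to 0.122. MMP7, also chosen after its values were seen and not tested, had 0 reads in vector and 26 in BHLHE22 libraries. This was 8.41-fold higher over a floor of 3 reads in the vector group, without counting error of the 26 reads. CCND1, likewise chosen after its values were seen, had a log2 fold change of 0.14 and was not called (adjusted p = 0.290).

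**Figure D4:**
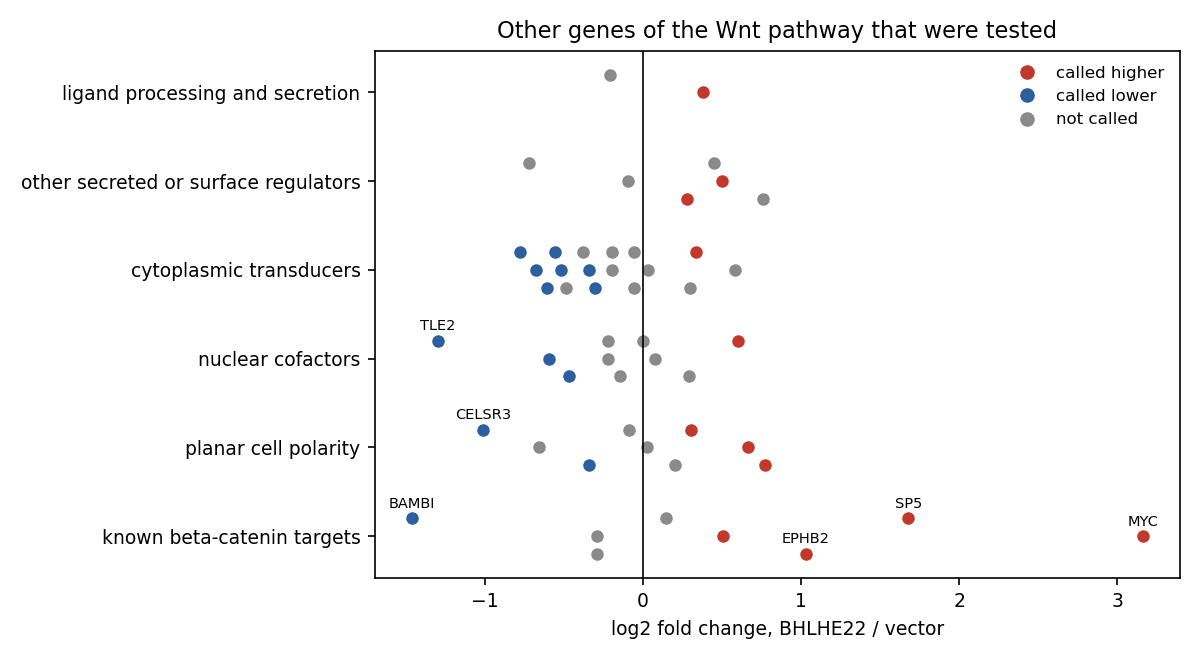
Log2 fold change (horizontal axis, BHLHE22 over vector) of the 52 tested pathway genes that are not members, 1 row per list and 1 point per gene; vertical offsets within a row only separate points. Calls lie on both sides of 0 in the lists of cytoplasmic transducers, nuclear cofactors, planar cell polarity genes and targets, with MYC (3.16) and BAMBI (-1.46) at the ends.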

How the data were processed

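RNA of 6 PC-3 libraries was sequenced from total RNA, 3 per group. Per the file headers, the authors deposited 1 table with whole-number read counts and FPKM values per Ensembl gene. Per the submitters' processing notes, CASAVA 1.8, HISAT2 2.1.0, StringTie 1.3.4b and edgeR were used with GRCh38/hg38. The sources used here do not give counting options or strand handling, so reads of overlapping or antisense genes cannot be told apart. Columns headed control were taken as the vector libraries.

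Genes were kept by filterByExpr in edgeR 4.0.16 (R 4.3.3), library sizes were scaled by TMM, and the group effect was tested with the robust quasi-likelihood test, 2-sided. SE is the log2 fold change over the square root of F. The deposited FPKM followed from the counts, 1 length per gene and unscaled library totals (100% of 26866 genes, within 0.1%), and served for levels between genes. Gene positions are the table's; 53 of 54 equal GENCODE 29, which gave exon overlaps. Promoters are RefSeq's.

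Alternatives were a block for replicate number, unscaled libraries, size factors from DESeq2, DESeq2 1.42.0, limma-voom (limma 3.58.1), 2 other filters, a threshold of 0.01, a test against a 1.2-fold change, and leaving out each library. The members, lists and tests were chosen with earlier results of these data known. All tested members are accounted for; pathway genes are named by smallest p among called genes, at most 4 per list, with CTNNB1, PORCN and WLS always given; others are marked as chosen after their values were seen.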

Additional observations from a re-analysis of the deposited data

How the results depend on the processing

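The 13 alternative fits do not include the threshold of 0.01 or the test against a 1.2-fold change. Of the 16 called members, 10 kept their call and direction under all 13: WNT2B, WNT4, WNT5A, WNT9A, WNT10B, FZD4, DKK1, RNF43, ZNRF3 and TCF7. WNT10B was not called at 0.01, and its adjusted p (edgeR quasi-likelihood) was 0.0496 without vector replicate 2. WNT2B and WNT10B passed the main filter only through the group in which they were higher. The other 6 (FZD1, FZD2, FZD6, FZD8, LRP6 and SFRP1) kept their direction and lost the call under at least 1. Of the 14 members not called, LGR4, FZD5, AXIN1 and APC were called under at least 1. Members called lower numbered 8, and 4 with unscaled library sizes, 5 without a filter beyond 1 read and 4 against a 1.2-fold change. They numbered 5 at a threshold of 0.01 and 5 to 7 with 1 library left out. All genes called lower numbered 3880 and, in the same order, 2890, 3875, 2783, 2482 and 3074 to 3762. Tested genes numbered 31773 without the filter, 16251 to 16451 with 1 library left out and 15945 in the others named. Members called higher numbered 8, and 5 at 0.01. Other pathway genes called higher numbered 12, and 5 against a 1.2-fold change, 5 at 0.01 and 5 to 10 with 1 library left out. All genes called higher numbered 3996 and, in the same order, 2872, 2480 and 3229 to 3936. At 0.01, 2480 genes were higher and 2482 lower. The cause of these differences was not tested, except that a stricter threshold leaves fewer calls by construction. The sign of 5 members near 0, none of them called, turned. With unscaled libraries the log2 fold change was 0.079 for LRP5, 0.094 for WNT7B, 0.018 for ROR1 and 0.0059 for TCF7L2. RYK gave -0.0040 with DESeq2's size factors, -0.0037 with DESeq2 and -0.00024 with a filter of 1 CPM. Leaving out 1 library gave -0.14 to 0.035 for LRP5, -0.050 to 0.071 for RYK and -0.080 to 0.0085 for WNT7B.

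With the replicate number as a block, 7 members were higher and 6 lower, beside 3688 and 3604 of all 15945 tested genes. APC was then called (adjusted p = 0.0270), and FZD1 (0.0548), FZD2 (0.0580), LRP6 (0.0773) and SFRP1 (0.0694) were not. Deviations of same-numbered libraries correlated at 0.0054, -0.027 and 0.010, so no pairing by number was seen across all tested genes. A pairing that touched few genes would not show in these values. Members with under about 50 reads in all could not be tested at this depth.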
